A study of Mus musculus with 20 samples.

Results

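Messenger RNA of 9 genes that mark tissue macrophages was examined in the white fat depot that lies along the epididymis (eWAT) and in liver. The genes are Adgre1, Mrc1, Lyz2, Cd68, Csf1r, Cd163, Cd14, Clec10a and Fcgr1. They were picked by symbol, and each was found in both deposited count tables, as 9 of 20738 genes in eWAT and 9 of 15608 genes in liver. In eWAT all 9 passed the filter on low counts (about 10 counts in at least 5 libraries). In liver 8 passed it, and Clec10a did not.

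The mice were males aged 2 months. The 4 groups were eWAT of IR 4A mice, eWAT of WT mice, liver of IR 4A mice and liver of WT mice, with 5 libraries each. IR 4A is a mutant insulin receptor, and the series addresses the endocytosis of this receptor that depends on MAD2, a protein of the spindle checkpoint. The labels used here give the genotype, tissue, sex and age of each library, but no strain, no zygosity, no treatment and no animal number. A p-value here therefore measures the spread between these libraries, which may in part be technical. In whole tissue, fewer macrophages and less of each messenger RNA per macrophage cannot be told apart.

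Total estimated counts ran from 13651874 to 15530589 in IR 4A eWAT libraries, from 15702786 to 21615358 in WT eWAT libraries, from 18209000 to 24238359 in IR 4A liver libraries and from 17989420 to 21067651 in WT liver libraries. The tissue labels were checked against defining genes. The liver libraries carried hepatocyte genes, 10 genes that together summed to 70868 to 84282 CPM, the unit of reads scaled to library size. The eWAT libraries carried both adipocyte genes and genes of the epididymis. A list of 12 adipocyte genes summed to 2005 to 10693 CPM in IR 4A eWAT and to 6527 to 23361 CPM in WT eWAT. A list of 12 epididymis genes summed to 21677 to 31273 CPM in IR 4A eWAT and to 5585 to 22039 CPM in WT eWAT, and none of those 12 was listed in the liver table. No library was a copy of another within its group, the lowest chi-square per degree of freedom being 13.5 among the 20 pairs in eWAT and 12.5 among the 20 pairs in liver.

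Macrophages are resident phagocytes of nearly all tissues. They take up dying cells, microbes and iron-bearing proteins, and their survival depends on signalling through the CSF1 receptor. In fat they lie between adipocytes and along vessels, and in liver most of them are Kupffer cells, which sit within the sinusoids. The 9 genes cover several of these roles. Csf1r encodes the receptor for CSF1 and IL-34. Mrc1 encodes the mannose receptor CD206, Cd163 the scavenger receptor for haemoglobin bound to haptoglobin, and Clec10a a C-type lectin that binds galactose-type sugars. Cd14 encodes a co-receptor for bacterial lipopolysaccharide, and Fcgr1 the high-affinity receptor for IgG. Lyz2 encodes the lysozyme of myeloid cells, Cd68 a glycoprotein of lysosomes and endosomes, and Adgre1 the adhesion receptor known as F4/80.

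Promoter sequences were available from RefSeq (build GRCm38.p6) for 5 of the 9 genes, namely Mrc1, Lyz2, Cd68, Cd163 and Fcgr1. The 250 bases before the transcription start are shown for genes that recur in the results. Mrc1 is shown because its change differed between the tissues, Cd163 because its fold change in eWAT was the largest of the 9, and Cd68 because its direction depended on the scaling. Capitals mark GAGGAA on either strand, 1 form of the site bound by ETS factors such as PU.1 of myeloid cells. All are written 5′ to 3′ on the strand of the gene. The windows are chr2:14229164-14229413 on the plus strand for Mrc1, chr6:124304401-124304650 on the plus strand for Cd163 and chr11:69666171-69666420 on the minus strand for Cd68.
Mrc1: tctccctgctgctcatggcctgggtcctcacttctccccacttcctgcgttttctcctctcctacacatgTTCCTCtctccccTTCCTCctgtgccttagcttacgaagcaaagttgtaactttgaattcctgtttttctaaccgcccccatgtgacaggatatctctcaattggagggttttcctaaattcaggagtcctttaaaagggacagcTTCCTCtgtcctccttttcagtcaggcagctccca
Cd163: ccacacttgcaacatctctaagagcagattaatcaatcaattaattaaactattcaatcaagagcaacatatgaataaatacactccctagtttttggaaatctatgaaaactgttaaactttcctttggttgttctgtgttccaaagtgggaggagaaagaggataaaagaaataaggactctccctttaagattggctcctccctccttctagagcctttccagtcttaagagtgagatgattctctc
Cd68: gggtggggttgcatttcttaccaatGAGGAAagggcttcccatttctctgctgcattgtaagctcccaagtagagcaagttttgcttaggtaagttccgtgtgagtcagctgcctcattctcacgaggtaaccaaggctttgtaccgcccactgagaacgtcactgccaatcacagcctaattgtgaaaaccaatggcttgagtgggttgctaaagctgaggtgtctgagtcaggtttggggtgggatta
The Mrc1 window held 3 matches, the Cd68 window 1 and the Cd163 window 0. Across the 5 promoters 3 held GAGGAA, against 23.1% of 27025 mouse promoters of the same length. The longer PU.1 form GAGGAAGT, which contains GAGGAA, was in 0 of the 5 and in 2.44% of all. The AP-1 site TGANTCA was in 1 of the 5, Cd68, and in 6.87% of all. TATAAA was in 0 of the 5 and in 13% of all. Each motif was searched on both strands, and a match is only a match of letters.

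The Lyz2 promoter is shown beside that of Lyz1, its neighbour on chromosome 10 that encodes a second lysozyme, because the transcripts of these genes share sequence that reads cannot assign. The windows are chr10:117282273-117282522 for Lyz2 and chr10:117292869-117293118 for Lyz1, both on the minus strand. Capitals mark the longest stretch with the same letters in both, positions 201 to 250 of the window.
Lyz2: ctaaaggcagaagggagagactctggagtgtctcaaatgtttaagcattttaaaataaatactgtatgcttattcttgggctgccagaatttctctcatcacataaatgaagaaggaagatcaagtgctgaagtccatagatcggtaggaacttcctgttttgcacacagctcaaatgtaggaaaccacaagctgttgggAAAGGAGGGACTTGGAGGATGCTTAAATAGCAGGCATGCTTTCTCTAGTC
Lyz1: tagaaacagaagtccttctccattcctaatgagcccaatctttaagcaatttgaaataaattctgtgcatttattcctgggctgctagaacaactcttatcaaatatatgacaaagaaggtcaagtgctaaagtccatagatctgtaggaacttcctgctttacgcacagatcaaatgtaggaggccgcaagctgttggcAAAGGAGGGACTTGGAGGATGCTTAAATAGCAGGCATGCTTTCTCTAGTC
The shared stretch was 50 bases long and reached the start site, and 152 of the 250 positions held the same letter. In the transcripts of GENCODE M21, 32.8% of the 31-base words of Lyz2 also occurred in Lyz1. Of the words of Clec10a, 14.7% occurred in another gene, mostly in its neighbour Mgl2 (13.4%). For Csf1r and Cd163 the shared part was 0.439% and 0.691%, and for the other 5 genes it was 0%. Values of Lyz2 and Clec10a are therefore uncertain by whatever reads the counting split between them and Lyz1 or Mgl2.

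The levels of the 9 genes relative to each other were compared as CPM per kilobase of exon. Lyz2 was the highest in each of the 4 groups, at 52.7 ± 22.6 CPM per kilobase in IR 4A eWAT, 168 ± 96.1 in WT eWAT, 21.4 ± 9.30 in IR 4A liver and 17.9 ± 2.67 in WT liver (SD, n = 5 each). Its mean less 1 SD lay above the mean plus 1 SD of the next gene, Cd68, in all 4 groups. Cd68 followed at 14.0 ± 3.11 CPM per kilobase in IR 4A eWAT, 23.4 ± 8.48 in WT eWAT, 4.86 ± 2.12 in IR 4A liver and 4.82 ± 1.199 in WT liver. In IR 4A eWAT, Cd68 stood clear of Csf1r by that measure, and in the other 3 groups it did not. Csf1r, Mrc1, Cd163 and, in eWAT, Clec10a formed a middle range whose neighbours did not separate beyond 1 SD, between 3.64 and 6.43 CPM per kilobase in IR 4A eWAT and between 8.45 and 16.3 in WT eWAT. Adgre1 and Cd14 had lower means, at 1.75 ± 0.556 and 2.09 ± 0.775 CPM per kilobase in IR 4A eWAT and at 4.82 ± 2.19 and 4.48 ± 1.87 in WT eWAT. They were not set apart from the middle range by that measure. Cd14 did not separate from Cd163 in IR 4A eWAT, nor Adgre1 from Clec10a in WT eWAT. Fcgr1 was the lowest of the 9 in eWAT, at 0.765 ± 0.260 CPM per kilobase in IR 4A mice and 1.13 ± 0.332 in WT mice. In liver Clec10a was the lowest, at 0.0685 ± 0.0344 CPM per kilobase in IR 4A mice and 0.104 ± 0.0409 in WT mice.

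The first question was whether the macrophage genes differed between IR 4A and WT fat. With TMM scaling, which levels the bulk of all genes between libraries, the fold change of IR 4A over WT in eWAT was below 0 for all 9 genes, while with libraries scaled to adipocyte genes it was below 0 for 7 and above 0 for Cd68 and Fcgr1. The median TMM-scaled log2 fold change of the 9 was -1.34, and that of all 16476 genes tested was -0.08. No gene of the 9 passed an adjusted p of 0.05 in edgeR's quasi-likelihood test with Benjamini-Hochberg adjustment. By that rule 0.0121% of all genes tested were called lower and 0% higher. At an unadjusted p under 0.05, 8 of the 9 were lower, against 9.24% of all genes, and 59.9% of all genes had a fold change below 0. The IR 4A and WT values did not overlap for 4 of the 9 (Adgre1, Mrc1, Lyz2 and Csf1r), all lower in IR 4A, against 3.22% of all genes. DESeq2 called 6 of the 9 lower (Adgre1, Mrc1, Lyz2, Csf1r, Cd163 and Cd14), against 4.14% of all genes, and limma voom with sample weights called 0 but gave 7 of them, all lower, an unadjusted p under 0.05, against 8.9% of all genes.

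Lyz2 had 87.3, 83.5, 30.5, 45.7 and 100.0 CPM in IR 4A eWAT 1 to 5, against 148, 148, 260, 426 and 122 CPM in WT eWAT 1 to 5. Every IR 4A library lay below every WT library, with IR 4A eWAT 3 the lowest and WT eWAT 4 the highest. The log2 fold change was -1.67 (SE 0.43), with an adjusted p of 0.203 in edgeR's quasi-likelihood test. Mrc1 had 28.7, 25.7, 12.7, 17.8 and 29.3 CPM in IR 4A eWAT, against 40.8, 63.3, 70.0, 123 and 39.8 CPM in WT eWAT. The groups were again apart, with WT eWAT 1 and 5 the nearest to the IR 4A libraries. Its fold change was -1.56 on the log2 scale (SE 0.36, edgeR adjusted p = 0.173).

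Csf1r, which macrophages need for survival, had 39.2, 38.8, 16.4, 23.5 and 39.1 CPM in IR 4A eWAT, against 46.5, 55.2, 85.04, 155 and 56.4 CPM in WT eWAT. The groups did not overlap, and IR 4A eWAT 3 and 4 stood below the other 3 IR 4A libraries. On the log2 scale the difference was -1.34 (SE 0.38, edgeR adjusted p = 0.211). Adgre1 had 6.73, 7.85, 3.79, 3.84 and 6.14 CPM in IR 4A eWAT, against 10.9, 11.2, 20.9, 25.4 and 9.64 CPM in WT eWAT. These groups did not overlap either, with WT eWAT 3 and 4 the highest. Its log2 fold change of -1.46 (SE 0.34) had an edgeR adjusted p of 0.173.

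Cd163, the haemoglobin scavenger receptor, had 27.2, 17.4, 3.24, 9.36 and 24.4 CPM in IR 4A eWAT, against 26.5, 44.6, 66.7, 139 and 40.1 CPM in WT eWAT. IR 4A eWAT 1 lay just above WT eWAT 1, so the groups overlapped by that pair alone. Its fold change was the largest of the 9, at -1.96 on the log2 scale (SE 0.61, edgeR adjusted p = 0.228). Cd68 had 21.3, 13.9, 14.3, 16.3 and 22.2 CPM in IR 4A eWAT, against 21.5, 19.2, 32.5, 46.0 and 27.9 CPM in WT eWAT. IR 4A eWAT 1 and 5 reached into the WT range, and the log2 fold change of -0.74 (SE 0.25) had an edgeR adjusted p of 0.239.

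The 3 remaining genes overlapped between the groups. Clec10a had 3.03 to 13.3 CPM in IR 4A eWAT (median 12.01), against 12.7 to 46.6 CPM in WT eWAT (median 13.6), so that 4 of the 5 WT libraries lay between 12.7 and 19.3 CPM and WT eWAT 4 stood alone. Its log2 fold change was -1.17 (SE 0.51, edgeR adjusted p = 0.304). Cd14 ran from 1.98 to 4.83 CPM in IR 4A eWAT and from 4.08 to 12.4 CPM in WT eWAT, giving a log2 fold change of -1.10 with SE 0.35 (edgeR adjusted p = 0.233). Fcgr1 ran from 1.08 to 2.59 CPM in IR 4A eWAT and from 1.91 to 3.93 CPM in WT eWAT. It had the smallest fold change, -0.56 on the log2 scale (SE 0.31), with an edgeR adjusted p of 0.396.

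**Figure D1:**
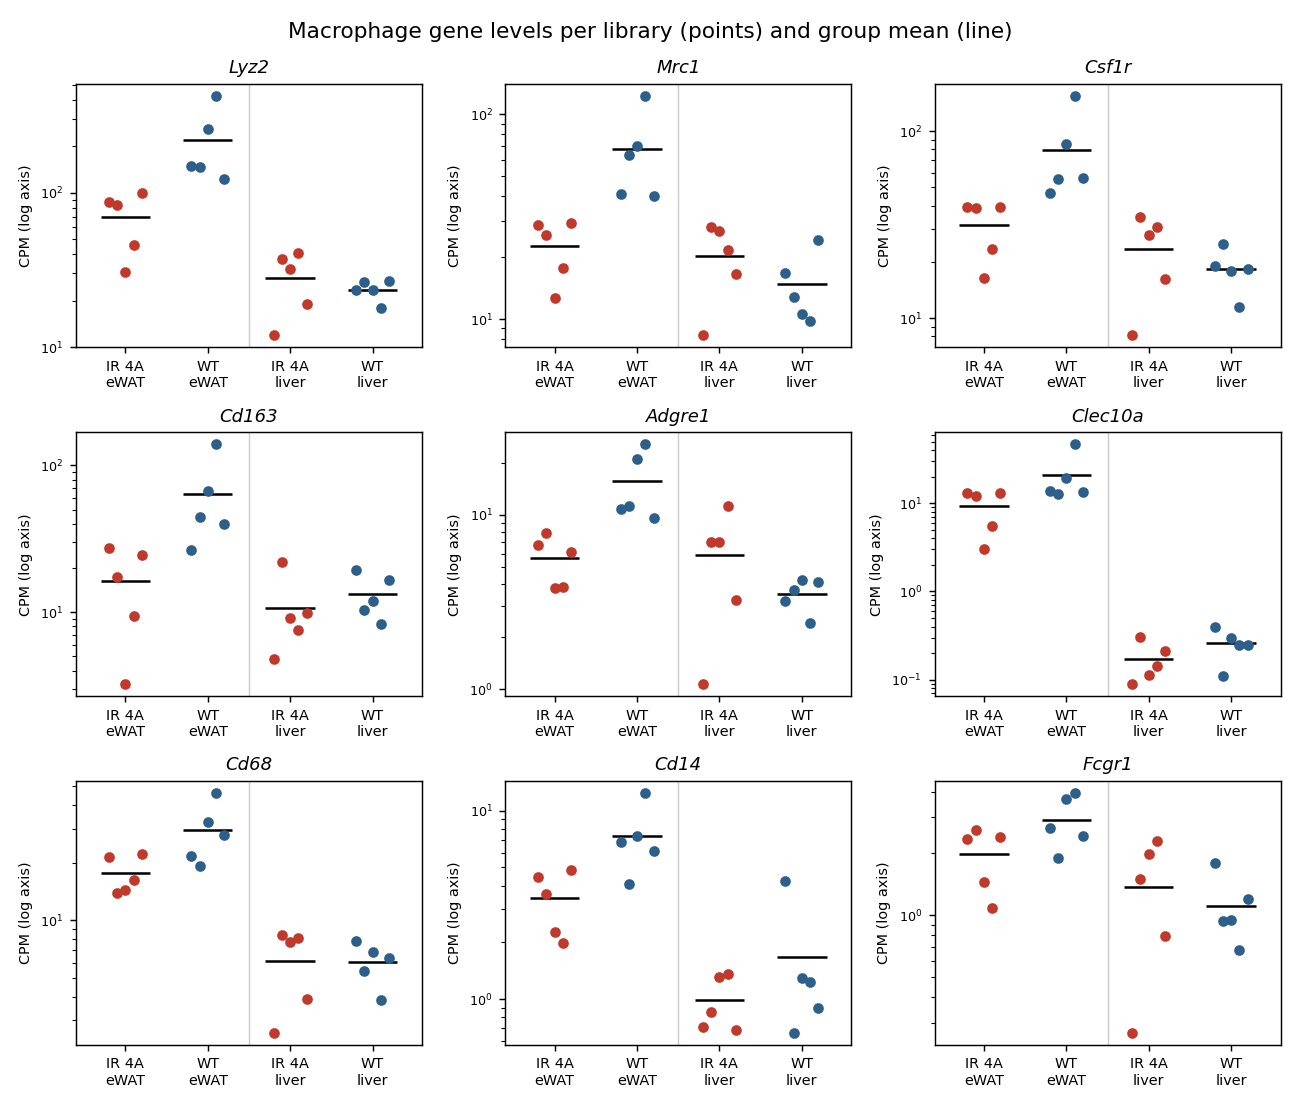
Level of each of the 9 macrophage genes in the 20 libraries, as CPM on a log axis, TMM-scaled separately within each tissue, with IR 4A eWAT, WT eWAT, IR 4A liver and WT liver from left to right; points are libraries and lines are group means. In eWAT the IR 4A points of Lyz2, Mrc1, Csf1r and Adgre1 lie wholly below the WT points, and in liver the groups of every gene overlap.

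In the authors' deposited table for eWAT all 9 genes likewise had a fold change below 0, and 3 of the 9 were lower at an adjusted p under 0.05. These were Adgre1 (log2 fold change -1.56, adjusted p 0.0140), Lyz2 (-1.68, adjusted p 0.0179) and Csf1r (-1.75, adjusted p 0.0236) in the authors' deposited table. In that deposited table of the authors, 323 of 18715 genes (1.73%) were lower and 182 were higher at this threshold.

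The libraries of a group were not alike, and the same libraries set the extremes of most macrophage genes. WT eWAT 4 was the highest of the 10 eWAT libraries for all 9 genes, and IR 4A eWAT 3 was the lowest for 6 of them. Summed over the 9 genes, the IR 4A libraries had 230, 205, 87.8, 125 and 242 CPM, against 317, 360, 565, 977 and 318 CPM in the WT libraries. Without WT eWAT 4 all 9 fold changes stayed below 0, with a median of -0.95 on the log2 scale, 7 were lower at an unadjusted p under 0.05, against 5.41% of all genes, and none was called by edgeR's quasi-likelihood test.

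The extremes of the macrophage genes were also the extremes of the adipocyte genes. The 12 adipocyte genes summed to 10693, 7591, 2005, 3095 and 9830 CPM in IR 4A eWAT 1 to 5, against 8968, 6527, 9924, 23361 and 11453 CPM in WT eWAT 1 to 5. IR 4A eWAT 3 and 4 were the lowest and WT eWAT 4 the highest. All 12 adipocyte genes had a fold change below 0, with a median of -0.91 on the log2 scale, and none was called. The mean log2 level of the adipocyte genes was 8.05 ± 1.05 in IR 4A eWAT and 9.03 ± 0.69 in WT eWAT (SD, n = 5 each), a difference of -0.98 (two-sided exact permutation test over 252 splits, p = 0.175, adjusted p = 0.262 over 3 lists). Genes of the epididymis ran the other way. Their sums were 21677, 31273, 29473, 25310 and 22161 CPM in IR 4A eWAT, against 15460, 15699, 19093, 5585 and 22039 CPM in WT eWAT, and the mean log2 level was higher in IR 4A by 1.72 (exact permutation p = 0.0159, adjusted p = 0.0476, where 0.00794 is the smallest p the design allows). Testis and sperm genes summed to 231 to 3883 CPM in IR 4A eWAT and to 262 to 8377 CPM in WT eWAT (exact permutation p = 0.762). Beyond the scalings and omitted libraries given here, the part of this uneven makeup in the macrophage result was not tested.

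**Figure D2:**
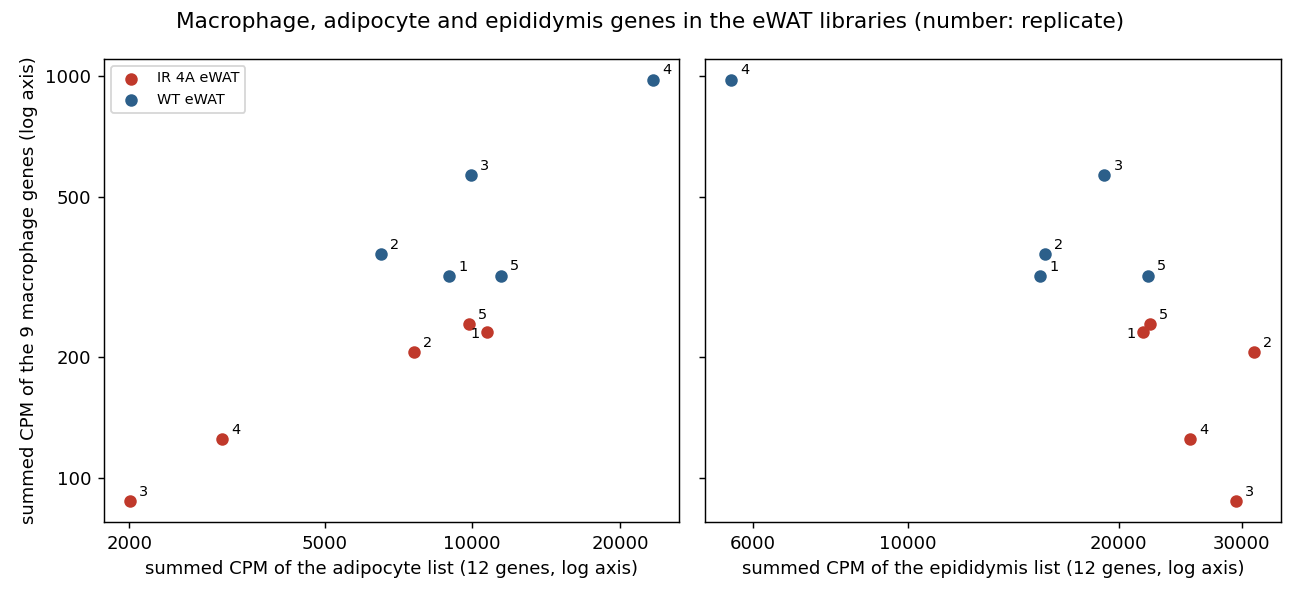
Summed CPM of the 9 macrophage genes in each eWAT library against the summed CPM of the adipocyte genes (left) and of the epididymis genes (right), all on log axes, IR 4A in red and WT in blue, with the replicate number beside each point. Between 6527 and 11453 CPM of adipocyte genes, 3 IR 4A libraries hold 205 to 242 CPM of macrophage genes and 4 WT libraries hold 317 to 565 CPM.

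When the libraries were scaled so that the adipocyte genes were level, no macrophage gene was called by edgeR's quasi-likelihood test, against 0% of all genes lower and 0% higher. The fold change remained below 0 for 7 of the 9 genes, against 3.86% of all genes, with a median of -0.25 on the log2 scale. Only Cd163 was lower at an unadjusted p under 0.05, against 0.303% of all genes, and no gene was without overlap, against 0.225% of all genes lower. Cd163 had 19.0, 18.8, 12.1, 23.0 and 19.5 CPM on this scale in IR 4A eWAT, against 22.04, 54.1, 50.5, 45.3 and 29.1 CPM in WT eWAT. Its groups overlapped only by IR 4A eWAT 4 and WT eWAT 1, and the log2 fold change was -1.12 (SE 0.40, edgeR adjusted p = 0.156). Limma voom with sample weights called Cd163 alone among the 9 (adjusted p = 0.0444), in a fit that called 19.9% of all genes in either direction. In that fit 5 of the 9 were lower at an unadjusted p under 0.05, against 2.24% of all genes. DESeq2, which gave an adjusted p for 1 of the 9, called none, against 0% of all genes lower.

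The other 8 genes spread on both sides of 0 on the adipocyte scale. Lyz2 was at -0.67 (SE 0.36, edgeR adjusted p = 0.176), Mrc1 at -0.52 (SE 0.42), Adgre1 at -0.37 (SE 0.47), Csf1r at -0.25 (SE 0.38), Clec10a at -0.20 (SE 0.38) and Cd14 at -0.03 (SE 0.43), all as log2 fold changes. Cd68 and Fcgr1 were above 0, at 0.48 (SE 0.47) and 0.46 (SE 0.47), and the edgeR adjusted p of these 7 ran from 0.331 to 0.951. The highest Cd68 value on this scale was 53.6 CPM in IR 4A eWAT 3, against at most 24.6 CPM in the 5 WT libraries. This scaling moved the median of all genes by 1.14 to 1.05 on the log2 scale, and 96.1% of all genes were then above 0. Set against that median the 9 genes lay lower, by -0.57 (Cd68) to -2.17 (Cd163) on the log2 scale.

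Without IR 4A eWAT 3 and 4 and WT eWAT 4, an omission chosen after seeing the data, the 7 libraries left had 7591 to 10693 CPM of adipocyte genes in IR 4A and 6527 to 11453 CPM in WT. Their epididymis genes were not level, at 21677, 31273 and 22161 CPM in IR 4A eWAT 1, 2 and 5. WT eWAT 1, 2, 3 and 5 had 15460, 15699, 19093 and 22039 CPM of them, and the part of this in the result was not tested. The median of all genes was then close to 0 under either scaling, -0.0027 by TMM and -0.04 by the adipocyte genes. All 9 macrophage genes were lower in IR 4A under both, with a median log2 fold change of -0.64 by TMM and -0.65 by the adipocyte genes, and none was called by edgeR. By TMM 5 of the 9 were lower at an unadjusted p under 0.05, against 12.2% of all genes, and by the adipocyte genes 4 were, against 9.42% of all genes. Mrc1 was at -0.94 (SE 0.23), Cd163 at -0.95 (SE 0.32), Adgre1 at -0.93 (SE 0.30), Lyz2 at -0.91 (SE 0.26) and Csf1r at -0.64 (SE 0.20) by TMM, all with an edgeR adjusted p of 0.253. Clec10a was at -0.20 (SE 0.18) and Fcgr1 at -0.12 (SE 0.27) in the same fit. With the adipocyte level as a covariate over all 10 libraries, Mrc1 (log2 fold change -1.01, adjusted p 0.0393) and Lyz2 (-0.93, adjusted p 0.0424) were called lower in IR 4A by edgeR's quasi-likelihood test, in a fit that called 1832 of 18175 genes. With the epididymis level as the covariate 0 of the 9 were called, and their median was -0.82. With the testis level as the covariate 8 of the 9 were called lower, all but Fcgr1, in a fit that called 1556 of 17653 genes.

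**Figure D3:**
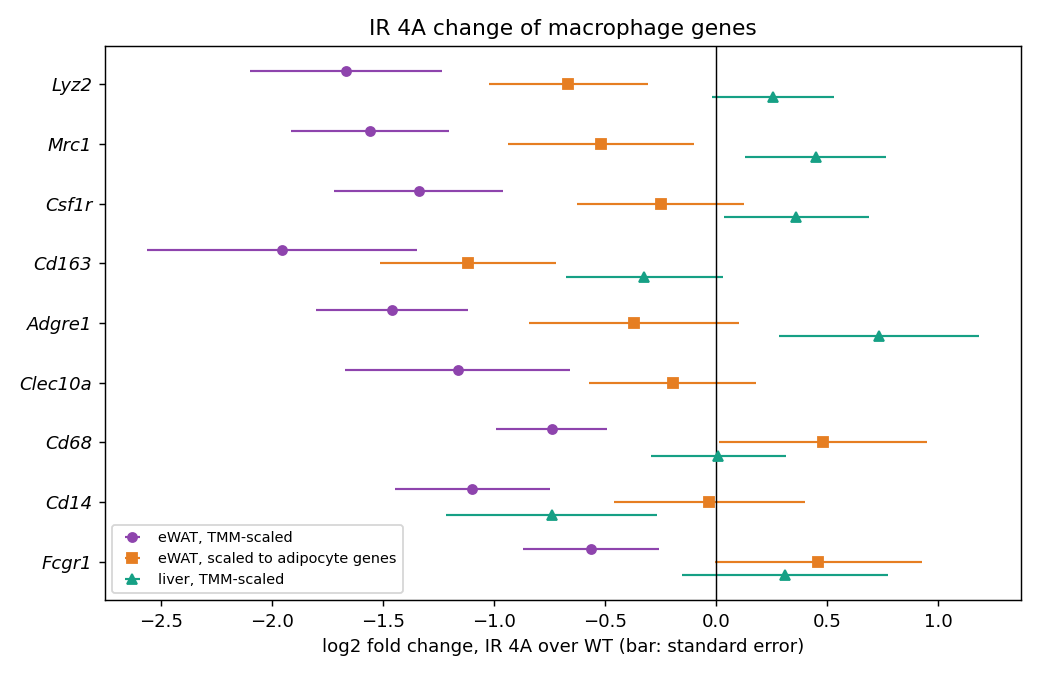
Log2 fold change of each macrophage gene, IR 4A over WT, in eWAT with TMM scaling (purple circles), in eWAT scaled to the adipocyte genes (orange squares) and in liver (green triangles); bars are standard errors, and Clec10a has no liver value because it did not pass the filter. In eWAT all 9 TMM values lie below 0, 7 of the 9 adipocyte-scaled values do, and 2 of the 8 liver values do.

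Related genes were read from lists chosen with earlier results of these data known, and none of their members was called in eWAT by edgeR's quasi-likelihood test. Of 20 further genes expressed across macrophages, 18 had a fold change below 0 with a median of -0.93 on the log2 scale, and 15 were lower at an unadjusted p under 0.05, against 9.24% of all genes. They include Cybb, the catalytic subunit of the phagocyte oxidase, at 9.13 ± 2.82 CPM in IR 4A eWAT and 22.2 ± 10.3 CPM in WT eWAT (SD, n = 5 each), Fcgr3, a low-affinity IgG receptor, at 11.2 ± 2.92 and 25.4 ± 13.4 CPM in IR 4A and WT eWAT, Itgam (CD11b) at 11.6 ± 6.35 and 30.8 ± 13.9 CPM, and Ptprc (CD45) at 9.79 ± 3.91 and 22.4 ± 9.50 CPM. On the adipocyte scale 5 of the 20 were below 0 and 15 above, with a median of 0.24. On that scale 96.1% of all genes were above 0, with a median of 1.05.

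Of 10 genes that mark long-lived resident macrophages all 10 had a fold change below 0 in eWAT, with a median of -1.37 on the log2 scale, and 9 were lower at an unadjusted p under 0.05, against 9.24% of all genes. Lyve1, a hyaluronan receptor that also marks lymphatic vessels, had 5.18 ± 3.37 CPM in IR 4A eWAT and 30.0 ± 17.4 CPM in WT eWAT, giving a log2 fold change of -2.53 with SE 0.55 (edgeR adjusted p = 0.173). Folr2, a folate receptor, was at -2.43 (SE 0.54), Timd4, a receptor for phosphatidylserine on dying cells, at -2.33 (SE 0.55), and F13a1, a clotting factor subunit, at -2.16 (SE 0.54). These 4 had the smallest p of the list. Their IR 4A and WT values did not overlap, all lower in IR 4A. Their choice by p made this likely, so it is a description only. The share of 3.22% over all genes is no measure for genes picked this way. On the adipocyte scale 8 of the 10 stayed below 0, against 3.86% of all genes, with a median of -0.52. Lyve1, Folr2, Timd4 and F13a1 were at -1.73, -1.44, -1.53 and -1.27 there, each with an edgeR adjusted p of 0.156.

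Genes of lipid-associated macrophages, the cells that take up lipid around dying adipocytes, were not shifted to one side. Of 10 in eWAT, 4 had a fold change below 0 and 6 above, with a median of 0.22 on the log2 scale. Trem2, their defining lipid receptor, had 11.6 ± 6.30 CPM in IR 4A eWAT and 3.94 ± 1.22 CPM in WT eWAT, giving a log2 fold change of 1.55 with SE 0.51 (edgeR adjusted p = 0.233). Cd63, a tetraspanin of lysosomes found in many cell types, was at 0.47 (SE 0.16), Lipa, the acid lipase of lysosomes, at -0.60 (SE 0.27), and Cd9, another widely expressed tetraspanin, at 0.43 (SE 0.24). On the adipocyte scale all 10 were above 0, with a median of 1.36, against a median of 1.05 over all genes. Of monocyte genes 7 of 10 were below 0 in eWAT, with a median of -1.01, and those with small p included Fn1 (fibronectin, -2.79), Hp (haptoglobin, -1.38) and Ccr2 (the receptor for CCL2, -1.04), of which Fn1 and Hp are also made by other cells of the tissue.

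Of 11 tested ligands of the receptor and transcription factors of macrophages, 9 were below 0 in eWAT, with a median of -0.81 on the log2 scale. On the adipocyte scale 2 were below 0 and 9 above, with a median of 0.32, against a median of 1.05 over all genes. Csf1, the main ligand of Csf1r, had 26.6 ± 5.38 CPM in IR 4A eWAT and 46.8 ± 15.5 CPM in WT eWAT without overlap, giving a log2 fold change of -0.81 with SE 0.23 (edgeR adjusted p = 0.213). Il34, the other ligand, had 18.9 ± 3.31 CPM in IR 4A eWAT and 13.2 ± 3.23 CPM in WT eWAT, giving a log2 fold change of 0.51 with SE 0.19 (edgeR adjusted p = 0.260). Csf2, the ligand of a related pathway, was not in the eWAT table. Among transcription factors of the macrophage lineage Spi1, which encodes PU.1, was at -1.05 (SE 0.38), Nr1h3 at -0.91 (SE 0.44), Spic at -0.87 (SE 0.41) and Cebpa at -0.82 (SE 0.54). Further ones were Irf8 at -0.23, Id3 at -0.21, Cebpb at -0.01 and Runx1 at 0.52.

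Among 10 genes that act with CD14 or bind the Fc part of IgG, 6 were below 0 in eWAT, with a median of -0.10 on the log2 scale. Tlr4, which signals the lipopolysaccharide that CD14 hands on, had 4.59 ± 2.42 CPM in IR 4A eWAT and 11.4 ± 3.79 CPM in WT eWAT without overlap, giving a log2 fold change of -1.31 with SE 0.42 (edgeR adjusted p = 0.233). Its adaptor Myd88 was at 0.33, Ticam1 at 0.25, the TLR4 partner Ly96 at 0.14 and the kinase Irak4 at -0.16. Lbp, which carries lipopolysaccharide in blood, was at -0.60, Fcgrt at -0.88, Fcgr4 at -0.70, Fcgr2b at -0.04 and the kinase Syk at 0.01, all as log2 fold changes. Of 12 activation genes 4 passed the filter in eWAT and all 4 were below 0: Retnla (-2.39), Arg1 (-2.16), Cxcl10 (-0.67) and Nos2 (-0.50).

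The 3 tested paralogs that could share reads also had fold changes below 0, as they had on the adipocyte scale (median -0.93 on the log2 scale, against 1.05 over all genes). Lyz1 had 67, 122, 18, 41 and 116 estimated counts in IR 4A eWAT, against 213, 174, 270, 908 and 163 counts in WT eWAT. Its counts were a small part of those of Lyz2, which ran from 443 to 1531 in IR 4A eWAT and from 2017 to 8461 in WT eWAT. Its log2 fold change was -1.91 (SE 0.62, edgeR adjusted p = 0.233). Mgl2, the neighbour of Clec10a, was at -2.04 (SE 0.56, edgeR adjusted p = 0.203), with 5.09 ± 3.08 CPM in IR 4A eWAT and 20.9 ± 14.6 CPM in WT eWAT. Cd209a was at -1.56 (SE 0.54), and Cd163l1 was not in the eWAT table.

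Fold changes below 0 were also found for markers of other cell types of fat. All 10 fibroblast and progenitor genes had a fold change below 0 (median -1.20 on the log2 scale), as had all 10 endothelial genes (median -0.98) and all 9 tested dendritic cell genes (median -0.56). All 5 tested mast cell genes were below 0, with a median of -2.67, and so were all 8 tested B and plasma cell genes, with a median of -1.39. On the adipocyte scale 4 of the 5 mast cell genes and 5 of the 8 B and plasma cell genes were below 0, against 3.86% of all genes. Their medians were -1.95 and -0.26. Cpa3, the carboxypeptidase of mast cells, had 0.285 ± 0.194 CPM in IR 4A eWAT and 2.48 ± 2.67 CPM in WT eWAT (SD, n = 5 each), levels near the filter. Of 5 tested T and NK cell genes 2 were below 0, with a median of 0.11. The same count was 6 of 10 for mesothelium (median -1.12), 8 of 10 for stellate cells (-0.48), 2 of 3 for neutrophils (-0.24) and 4 of 4 for erythroid cells (-0.64). None of these genes was called by edgeR's quasi-likelihood test. The summed level of the fibroblast genes was 803 to 2229 CPM in IR 4A eWAT and 2828 to 7117 CPM in WT eWAT, and that of the endothelial genes was 209 to 750 CPM in IR 4A eWAT and 494 to 1499 CPM in WT eWAT. Scaled to the fibroblast genes, 5 of the 9 macrophage genes were below 0 and 4 above, with a median of -0.08. Scaled to the endothelial genes, 7 were below 0 and 2 above, with a median of -0.41. The defining Kupffer cell gene Clec4f was near 0 in eWAT, at 0.0480 CPM in IR 4A mice and 0.138 CPM in WT mice.

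**Figure D4:**
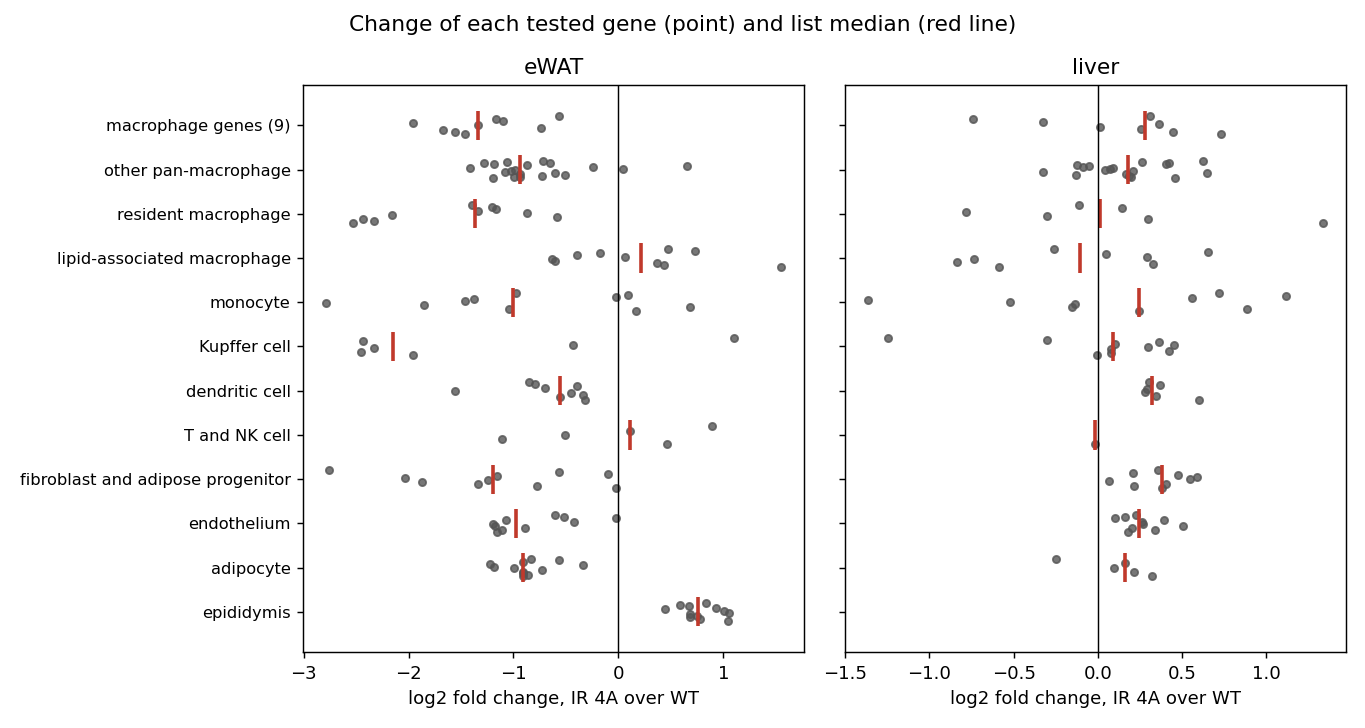
Log2 fold change, IR 4A over WT, of each tested gene of 12 lists in eWAT (left) and liver (right); points are genes and red lines are list medians, and the epididymis row is empty in liver because none of its genes is in that table. In eWAT the medians of the 9 macrophage genes (-1.34) and of the resident list (-1.37) lie left of 0. So do those of fibroblast (-1.20) and endothelial genes (-0.98), while the lipid-associated list (0.22) and the epididymis list (0.76) lie right of it. Scaled to adipocyte genes the 9 genes centre at -0.25, the resident list at -0.52, the other pan-macrophage list at 0.24 and all genes at 1.05.

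In liver no macrophage gene was called between IR 4A and WT mice by edgeR's quasi-likelihood test, where 0.00805% of 12421 genes were called lower and 0% higher. None of the 8 genes tested reached an unadjusted p of 0.05 (against 9.48% of all genes lower and 8.6% higher), and none was without overlap (against 1.83% of all genes lower and 1.68% higher). Neither DESeq2, which called 1.82% of all genes lower and 1.61% higher, nor limma voom called one. The fold change was above 0 for 6 of the 8 and below 0 for 2, with a median of 0.28 on the log2 scale, where 51% of all genes were above 0 and 49% below. Markers of other cell types in liver leaned the same way. All 10 stellate cell genes (median 0.45), 10 endothelial genes (0.25), 9 tested fibroblast genes (0.38) and 6 tested dendritic cell genes (0.32) were above 0. Of the stellate genes 6 were higher at an unadjusted p under 0.05. Hepatocyte genes had a median of -0.01. The authors' deposited table for liver gave an adjusted p for 8 of the 9 genes, all but Clec10a. It called 0 of these 8 at an adjusted p under 0.05. Of all 13287 genes with an adjusted p there, 178 (1.34%) were lower and 154 were higher at this threshold. At such shares, 0 of 8 does not set the macrophage genes apart from all genes.

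Adgre1 had 1.07, 6.98, 6.997, 11.2 and 3.27 CPM in IR 4A liver 1 to 5, against 3.20, 3.70, 4.25, 2.41 and 4.13 CPM in WT liver 1 to 5. The IR 4A libraries lay on both sides of the WT libraries, with IR 4A liver 2, 3 and 4 above all of them and IR 4A liver 1 below. The log2 fold change was 0.73 (SE 0.45, edgeR adjusted p = 0.408). Mrc1 had 8.34, 28.1, 26.8, 21.7 and 16.6 CPM in IR 4A liver, against 16.8, 12.9, 10.6, 9.81 and 24.2 CPM in WT liver. Its groups overlapped widely, and the log2 fold change was 0.45 (SE 0.32, edgeR adjusted p = 0.474).

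Lyz2 had 11.9, 37.4, 31.9, 40.5 and 19.0 CPM in IR 4A liver, against 23.5, 26.2, 23.4, 17.9 and 26.8 CPM in WT liver. The IR 4A libraries were more spread than the WT libraries, and the log2 fold change was 0.26 (SE 0.27, edgeR adjusted p = 0.653). Csf1r had 8.12, 34.8, 27.9, 30.6 and 16.3 CPM in IR 4A liver, against 19.1, 24.8, 17.9, 11.4 and 18.3 CPM in WT liver, giving a log2 fold change of 0.36 with SE 0.33 (edgeR adjusted p = 0.584). Cd68 had 2.59, 8.34, 7.67, 8.06 and 3.90 CPM in IR 4A liver, against 7.80, 5.47, 6.85, 3.83 and 6.38 CPM in WT liver. Its means were nearly the same, 6.11 ± 2.67 CPM in IR 4A liver and 6.06 ± 1.51 CPM in WT liver, giving a log2 fold change of 0.01 with SE 0.30 (edgeR adjusted p = 0.991).

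Cd163 ran from 4.82 to 21.996 CPM in IR 4A liver and from 8.27 to 19.3 CPM in WT liver, giving a log2 fold change of -0.32 with SE 0.35 (edgeR adjusted p = 0.662). Fcgr1 ran from 0.268 to 2.31 CPM in IR 4A liver and from 0.679 to 1.79 CPM in WT liver, giving a log2 fold change of 0.31 with SE 0.46 (edgeR adjusted p = 0.763). Cd14 ran from 0.685 to 1.37 CPM in IR 4A liver and from 0.663 to 4.26 CPM in WT liver, giving a log2 fold change of -0.74 with SE 0.47 (edgeR adjusted p = 0.427). The highest value was that of WT liver 1, which together with WT liver 3 was also high in the acute phase genes Hp and Lbp. Lbp had 134, 133, 92.4, 89.5 and 76.5 CPM in IR 4A liver, against 522, 113, 306, 142 and 142 CPM in WT liver. Without WT liver 1 and 3, an omission chosen after seeing the data, the log2 fold change of Cd14 was 0.10 (SE 0.36). Cd14 itself had 76 estimated counts in WT liver 1 and 26 in WT liver 3, and any link to the acute phase genes was not tested. Clec10a was not tested, with 2, 6, 3, 3 and 4 estimated counts in IR 4A liver and 7, 2, 6, 4 and 5 in WT liver.

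One liver library stood apart for the macrophage genes. IR 4A liver 1 was the lowest of the 10 for 8 of the 9, and its sum over the 9 genes was 38.0 CPM, against 140, 114, 124 and 70.6 CPM in the other IR 4A livers and 55.8 to 98.8 CPM in WT livers. It was also the lowest for the 10 Kupffer cell genes, at 102 CPM against 173 to 290 CPM in the other IR 4A livers and 131 to 213 CPM in WT livers. Without it the median log2 fold change of the 8 genes was 0.51, and 4 were higher at an unadjusted p under 0.05, against 10.7% of all genes, among them Adgre1 at 1.00 (SE 0.30, edgeR adjusted p = 0.0989). Over all genes 143 of 12556 were called without this library, and 1 of 12421 with all libraries. The Kupffer cell genes themselves centred near 0 over all libraries, with a median log2 fold change of 0.09, and Clec4f, their defining lectin, had 38.0 ± 14.1 CPM in IR 4A liver and 38.1 ± 7.54 CPM in WT liver (SD, n = 5 each). Of 18 tested genes of the wider macrophage list 13 were above 0 in liver, with a median of 0.18.

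No gene of the macrophage-related lists was called in liver by edgeR's quasi-likelihood test, and the medians of these lists lay between -0.11 (lipid-associated) and 0.34 (activation) on the log2 scale. Of the resident list 3 of 6 tested genes were above 0. Lyve1, which in liver also marks sinusoidal endothelium, had 5.98 ± 3.54 CPM in IR 4A liver and 2.37 ± 1.07 CPM in WT liver (SD, n = 5 each), at 1.34 on the log2 scale (SE 0.44, edgeR adjusted p = 0.171). Sirpa, a receptor for the don't-eat-me signal CD47, had 11.999 ± 3.82 CPM in IR 4A liver and 7.79 ± 0.833 CPM in WT liver. Its log2 fold change was 0.62 (SE 0.20, edgeR adjusted p = 0.171). Among ligands and transcription factors 7 of 11 were below 0, with Csf1 at 0.14 and Spi1 at -0.21. At an unadjusted p under 0.05, 2 were lower, Cebpb at -0.62 (SE 0.20, edgeR adjusted p = 0.172) and Nr1h3 at -0.21 (SE 0.07, adjusted p = 0.171), and 1 was higher, Id3 at 0.73 (SE 0.21, adjusted p = 0.146). Among CD14 and Fc receptor partners 6 of 10 were below 0, with Lbp the furthest at -1.22 (SE 0.38, edgeR adjusted p = 0.165).

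Whether the change differed between the tissues was tested in 1 model of all 20 libraries with an interaction term for genotype by tissue. It is given as the change in eWAT minus the change in liver. The model took all libraries as independent, since the labels do not say which came from the same mouse. Mrc1 was the 1 gene of the 9 called, lower by -2.03 on the log2 scale (SE 0.50, edgeR adjusted p = 0.0424), against 1.67% of all 14696 genes called lower. Its adjusted p ran from 0.00498 to 0.106 over 30 alternatives and passed 0.05 in 15 of them. It missed 0.05 when any 1 of IR 4A eWAT 2, 3 or 4, WT eWAT 2, 3 or 4, IR 4A liver 2, 3, 4 or 5 or WT liver 1, 2, 3 or 4 was left out, while the difference stayed between -1.61 and -2.28 over all 30. The next were Lyz2 at -1.95 (SE 0.53, edgeR adjusted p = 0.0544), Adgre1 at -2.22 (SE 0.61, adjusted p = 0.0566) and Csf1r at -1.72 (SE 0.53, adjusted p = 0.0770). DESeq2 called these 4 genes, against 4.76% of all genes lower. Limma voom called Mrc1 and Lyz2, which is printed without the share of all genes and describes the fit only. All 9 differences were below 0, as were 60.8% of all genes, and 5 had an unadjusted p under 0.05, as had 14.6% of all genes. Those of Cd163 (-1.65), Fcgr1 (-0.90), Cd68 (-0.77), Clec10a (-0.56) and Cd14 (-0.37) had edgeR adjusted p values of 0.183 to 0.762. Lists of other cell types also lay below 0 in this fit. Medians were -1.79 for 10 fibroblast and progenitor genes (4 called lower) and -2.11 for 10 mesothelial genes (2 called lower). They were -1.23 for 10 endothelial genes and -2.02 for 8 B and plasma cell genes (0 called in each), against -1.65 for the 9. The lipid-associated list had a median of 0.45, with 7 of 10 above 0.

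The same fit gave the level of each gene in eWAT relative to liver within each genotype. In IR 4A mice Adgre1 (log2 fold change -1.41, edgeR adjusted p = 0.00647), Mrc1 (-1.18, adjusted p = 0.00573) and Csf1r (-0.94, adjusted p = 0.0292) were lower in eWAT than in liver. These were 3 of the 9, a share near the 34.8% of all genes called lower. With library totals alone none of these 3 kept the call. Of the 9 genes 1, Clec10a, was called higher, against 40.5% of all genes. Clec10a passed the filter of this fit only through eWAT, with 2 to 7 estimated counts in each liver library, so that a higher level in eWAT was built into its inclusion. Its log2 fold changes of 4.43 in IR 4A mice and 4.98 in WT mice are imprecise for the same reason and are given as a description. Lyz2 (-0.05) and Cd68 (0.18) were near 0 in IR 4A mice. In WT mice Lyz2 (1.89, edgeR adjusted p = 0.000172), Cd68 (0.94, adjusted p = 0.00795) and Mrc1 (0.85, adjusted p = 0.0360) were higher in eWAT than in liver. With Clec10a, whose inclusion favoured this direction, the calls were 4 of the 9, a share near the 43.2% of all genes. Of the 9, 0 were lower, against 33.9% of all genes. Fcgr1 was at 0.07 and the other 4 were at 0.78 to 0.91 with edgeR adjusted p values of 0.0613 to 0.104.

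Most of these comparisons of tissues depended on the scaling. With library totals alone, the median log2 fold change of all genes, eWAT over liver, was 1.55 in IR 4A mice and 1.69 in WT mice, where TMM had given 0.12 and 0.19. All 9 genes were then higher in WT eWAT than in WT liver by edgeR's quasi-likelihood test, in a fit that called 13577 of 14696 genes in either direction. In IR 4A mice, where 13301 of 14696 genes were called, Adgre1 stood at -0.0004, Mrc1 at 0.23 and Csf1r at 0.48, so that the direction of Mrc1 and Csf1r turned. Lyz2 was called higher in WT eWAT than in WT liver under each of the 30 alternatives, at 1.37 to 3.36 on the log2 scale. Without WT eWAT 4, 2 of the 9 were called higher in WT eWAT, a count printed without the share of all genes. Mrc1 was then at 0.37 and Cd68 at 0.59.

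**Figure D5:**
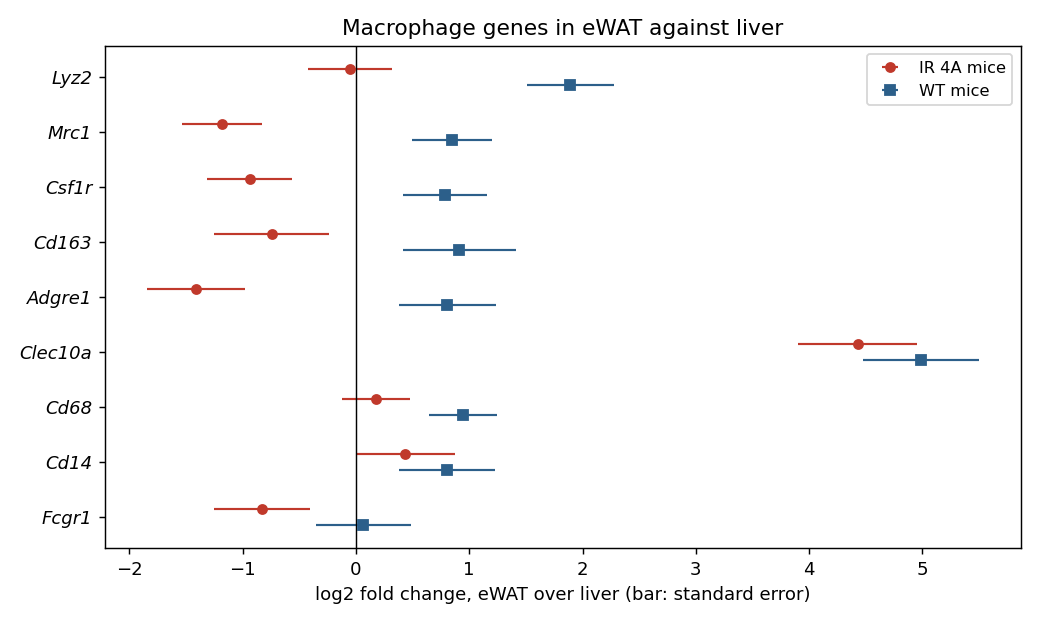
Log2 fold change of each macrophage gene in eWAT over liver, in IR 4A mice (red circles) and WT mice (blue squares), from 1 fit of all 20 libraries with TMM scaling; bars are standard errors. For all 9 genes the IR 4A value lies left of the WT value, and Clec10a, which passed the filter only through eWAT, is above 4 in both, while with library totals alone the IR 4A values of Mrc1, Lyz2, Csf1r, Cd163 and Fcgr1 lie right of 0.

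Across the 10 eWAT libraries each macrophage gene followed the mean of the 9, with Pearson correlations of 0.899 for Fcgr1 to 0.992 for Lyz2. This is a description, since the libraries share the makeup differences described above. The other genes with the most similar pattern in eWAT were Cyth4 (r = 0.993), Tgfbr2 (0.991), Col6a1 (0.990), Cfp (0.990) and Tgfb3 (0.990), over 10 libraries. Cyth4 encodes a cytohesin of blood cells and Cfp encodes properdin of the complement system, while Col6a1 encodes a chain of collagen VI and Tgfbr2 and Tgfb3 a receptor and a ligand of the TGF-beta family. In liver the genes held together less, from 0.435 for Cd14 and 0.684 for Cd163 to 0.973 for Cd68. The most similar other genes there were Ctss (r = 0.978), Fcgr3 (0.972), Arhgdib (0.971), Itgal (0.964) and Vsig4 (0.963), over 10 libraries. Ctss encodes the lysosomal protease cathepsin S, and Vsig4 a complement receptor of Kupffer cells.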

How the data were processed

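RNA was extracted from liver and eWAT, enriched for poly-A and sequenced as stranded libraries that were all prepared together, per the labels' protocols. The tools were Salmon 1.8.0 and DESeq2 1.32.0 and the build was GRCm39, per the submitters' processing notes. Their settings are not given in the sources used here. The count tables the authors deposited hold whole-number estimated counts per gene, and no gene in them sums to under 10 in a tissue. The normalized log2 tables the authors deposited were not used here. The authors also deposited DESeq2 tables, which hold a mean signal (normalized count), a log2 fold change and a p-value for each gene.

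Count columns were matched to samples by their names, in which Ctl was read as WT. Rows repeating an identifier were dropped (208 in eWAT, 83 in liver). Genes were kept by filterByExpr (minimum count 10, minimum total 15), leaving 16476 in eWAT, 12421 in liver and 14696 for both tissues. Printed CPM values (estimated counts scaled to library size) use TMM factors computed within a tissue. The main test was edgeR's quasi-likelihood test (edgeR 4.0.16, R 4.3.3), two-sided, with Benjamini-Hochberg adjustment over all genes tested and a threshold of 0.05. For the adipocyte scale, libraries were scaled so that the mean log2 count (prior count 2) of 12 adipocyte genes was level. Marker levels are mean log2(CPM + 1). The biological coefficient of variation common to all genes came to 0.512 (eWAT), 0.187 (liver) and 0.301 (both tissues).

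Alternatives were RLE and upper-quartile scaling, library totals alone, filters, DESeq2 1.42.0, limma 3.58.1 voom, edgeR's robust prior, marker covariates, other scalings, an adjusted p of 0.1, and omission of libraries. Totals alone, the fibroblast and endothelial scalings and the omission of several libraries at once were chosen after seeing the data. Exon lengths and shared 31-base words came from GENCODE M21 (GRCm38), and promoters from RefSeq (GRCm38.p6). The members and lists were chosen with earlier results of these data known. Named genes were all 9 members, up to 4 of each other list described by smallest p, all ligands, partners and paralogs, and the 5 genes most like the members per tissue among genes averaging 1 CPM or more. Transcription factors of the ligand list were named likewise, and some genes of these lists, counted in them, are not reported here by name.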

Additional observations from a re-analysis of the deposited data

Results flagged for a closer look

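A search for single libraries far from the rest of their group covered 36 groups of 5 libraries (9 genes in 4 groups) and found 2, where chance flags about 1 group in 20 by the 95% critical value used and the genes share libraries. Clec10a was at 46.6 CPM in WT eWAT 4, with the next WT eWAT library at 19.3 CPM, a gap of 0.804 of the range. WT eWAT 4 was the highest eWAT library for all 9 genes and for the adipocyte genes. Cd14 was at 4.26 CPM in WT liver 1, with the next WT liver at 1.30 CPM, a gap of 0.823 of the range.

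The IR 4A change of Mrc1 differed between the tissues, by -2.03 on the log2 scale (eWAT minus liver, edgeR adjusted p = 0.0424). Mrc1 was lower in all 5 IR 4A eWAT libraries than in any WT eWAT library, while its liver groups overlapped. The adipocyte genes also had fold changes below 0 in IR 4A eWAT (median -0.91 on the log2 scale), and the part of this in the difference between tissues was not tested.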

How the results depend on the processing

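None of the 8 liver genes was called under any of the 22 alternatives, and all fold changes of the main eWAT test kept their direction except under scaling to other cell types. In eWAT, where edgeR called 0 of the 9 genes and 0.0121% of all genes lower, DESeq2 called 6, against 4.14% of all genes lower. A fit of all 20 libraries called 2, the testis covariate 8 and the adipocyte covariate 2. Every single omission called 0, where at most 6 of 16636 genes were called. For these covariates the number of all genes called is given above. Counts printed here without such a share describe the fits and are not a result about the 9 genes. Scaled to the fibroblast genes Cd68 stood at 0.56, Cd14 at 0.12, Clec10a at 0.048 and Fcgr1 at 0.63, and scaled to the endothelial genes Cd68 stood at 0.26 and Fcgr1 at 0.29 (log2 fold changes). Relative to the adipocyte genes limma voom called 1 gene, in a fit that called 19.9% of all genes in either direction. There Cd68 turned to -0.47 with voom, -0.44 without IR 4A eWAT 3 and 4 and WT eWAT 4, and -0.33 without IR 4A eWAT 3 and 4 and WT eWAT 1 and 2. Fcgr1 turned to -0.10 without the first of these sets. Cd14 turned to 0.10 scaled to Adipoq alone and ran from -0.32 to 0.094 when 1 library was left out.

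The Cd68 liver log2 fold change was at -0.0076 without the filter, at -0.068 with the replicate block, and from -0.12 to 0.21 when 1 library was left out, and Cd14 was at 0.10 without WT liver 1 and 3. For the difference between tissues 1 gene was called, against 1.67% of all genes lower, and DESeq2 called 4, against 4.76% of all genes lower. Voom called 2, an adjusted p of 0.1 4, library totals alone 4 and the replicate block 0. These counts and those of the omissions are printed without the share of all genes and describe the fits only. Leaving out 1 library gave 0 to 4 calls, with 4 without IR 4A liver 1, 3 without WT eWAT 5 and 2 without IR 4A eWAT 5. Clec10a ran there from -0.75 to 0.032, the last without WT eWAT 4.

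For WT eWAT over WT liver 4 were called, Clec10a among them, in a fit that called 77.1% of all genes in either direction. Upper-quartile scaling called 8, an adjusted p of 0.1 7 and library totals alone 9. With 77.1% of all genes called in the main fit, the counts of this paragraph describe the fits and are no result about the 9 genes. Leaving out 1 library gave 2 (without WT eWAT 4) to 6 calls (without IR 4A liver 1), and Fcgr1 ran from -0.21 to 0.31. For IR 4A eWAT over IR 4A liver, Lyz2 was at 0.30 with upper-quartile scaling, 0.10 with voom, 0.039 with the replicate block and 1.35 with library totals alone, and from -0.25 to 0.13 when 1 library was left out. Cd68 ran from -0.019 to 0.32. With library totals alone Mrc1 was at 0.23, Csf1r at 0.48, Cd163 at 0.66 and Fcgr1 at 0.58. The causes of these shifts were not tested.

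The replicate numbers gave no regular pairing of the libraries. Between the genotypes, deviations of same-numbered eWAT libraries from their group means correlated at -0.702, -0.726, -0.205, -0.707 and 0.670, and those in liver between -0.0723 and 0.0770. Between same-numbered eWAT and liver libraries they correlated at -0.164 to 0.0694 in IR 4A mice and at -0.0857 to 0.0340 in WT mice. The labels do not say whether eWAT and liver came from the same mice. The replicate block left 0 calls in eWAT and 3 in each comparison of eWAT with liver, where 4 were called without it. Omissions of several libraries, library totals alone and the fibroblast and endothelial scalings were chosen after seeing the data. Clec10a (2 to 7 counts in each liver library) and Fcgr1 (18 to 78 counts in each eWAT library) are limited by depth, and these limits cover counting error only.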
